A study of Homo sapiens with 9 samples.

Results

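NLF is an established human neuroblastoma cell line. The cells described here had received a non-targeting small interfering RNA (siNTC) for 48 hours, in 3 biological replicates, which are 3 of the 9 libraries of a knockdown study of TBX2 and its antisense RNA TBX2-AS1. They were chosen by their labels alone, as the libraries named NLF siNTC, and no knockdown library enters any value below. Cells were grown in RPMI medium with fetal bovine serum, and total RNA was depleted of ribosomal RNA before stranded libraries were made. All levels are of cells that carried a transfected siRNA, since cells without one are not part of the study. Levels are FPKM (fragments normalised for transcript length and sequencing depth), a scale that allows levels of different genes to be set side by side. A gene counts as detected where it reached 1 FPKM in all 3 libraries, and errors are SD with n = 3. The levels of 2 genes are said to be apart only where their ranges over the 3 libraries do not overlap. With 1 group there is no comparison to test, so no p value is given.

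Neuroblastoma arises from the sympathetic lineage of the neural crest, in which HAND2, GATA3, ISL1 and others act as a mutually reinforcing set of transcription factors that defines the adrenergic state. Neuroblastoma cells can also take up a mesenchymal state, marked by factors such as PRRX1, RUNX1 and the AP-1 proteins and by extracellular matrix genes. MYCN, the oncogene most often amplified in this tumour, lies on the short arm of chromosome 2, and NLF is known as a line with amplified MYCN.

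The 3 libraries held 50490867, 42912762 and 43880732 counts. Of 57757 gene IDs, 12286 (21.3%) were detected and 27394 had no count in any library. Of 18638 protein-coding genes, 10466 (56.2%) were detected, and the median over all coding genes was 2.598 FPKM. The coding share and this median are the background for the lists below that are mainly of coding genes. For the noncoding lists, 611 of 13074 long noncoding genes (4.67%) and 213 of 5616 small noncoding genes (3.79%) were detected. A count of 0 allows up to 3 counts, which is 0.0594 to 0.0699 CPM (counts scaled to library size) in a library, for counting error only. The label was checked against markers. Of 14 markers of sympathetic neuroblasts, 10 were detected, with a summed level of 227 to 275 FPKM per library. Of 9 mesenchymal markers, 5 were detected, with sums of 34.9 to 37.2 FPKM. None of 7 Schwann cell markers, 5 leukocyte markers or 5 epithelial markers was detected, and their sums were at most 1.09, 0.389 and 0.752 FPKM. In the longer lists, none of 16 leukocyte and none of 14 epithelial genes was detected in all 3 libraries, but single members were higher than those sums. KRT18, an epithelial keratin, had 4.10, 3.84 and 0.977 FPKM, and CD68, a macrophage marker, had 0.779, 1.03 and 0.384 FPKM. Of 5 endothelial and fibroblast markers found, PDGFRB and DCN were detected, CDH5 had no count, and the list summed to 19.5 to 29.99 FPKM. In bulk RNA, fewer cells of a type and less RNA per cell cannot be told apart.

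Adrenergic transcription factors were the most abundant lineage factors. Of 29 found, 23 (79.3%) were detected and their median was 8.11 FPKM. MEIS2, a homeobox cofactor, had 66.7, 73.3 and 84.6 FPKM in replicates 1, 2 and 3. INSM2, a zinc finger factor of neuroendocrine cells, had 69.6, 66.0 and 83.1 FPKM. TWIST1, a basic helix-loop-helix factor of the neural crest, had 60.0, 56.5 and 56.3 FPKM. INSM2 and TWIST1 were apart, while TWIST1, HAND2, SOX11, TBX2, PHOX2A and MEIS1, with means from 57.6 down to 34.4 FPKM, each overlapped the next in order. The factors of the sympathetic core thus did not share a level. HAND2 was at 49.4 ± 10.0 FPKM and PHOX2A, a homeobox factor of noradrenergic neurons, at 37.2 ± 9.30 FPKM. ISL1 followed at 13.0 ± 2.50 FPKM and GATA3, which is needed for catecholamine synthesis in sympathetic neurons, at 6.92 ± 0.486 FPKM.

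In several families, 1 adrenergic member carried most of the signal. These pairs were chosen after their values were seen. HAND2 was 38.6 times the level of HAND1 (1.28 FPKM), and GATA3 was 3.18 times GATA2 (2.17 FPKM). INSM1, the relative of INSM2, had 0.0758, 0.129 and 0.0233 FPKM. Among the list, ZNF536 had no count and TFAP2B, a crest factor of sympathetic progenitors, had 0, 0.00273 and 0.00455 FPKM. SIX3 and LMO1 also stayed under 1 FPKM in every library.

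**Figure D1:**
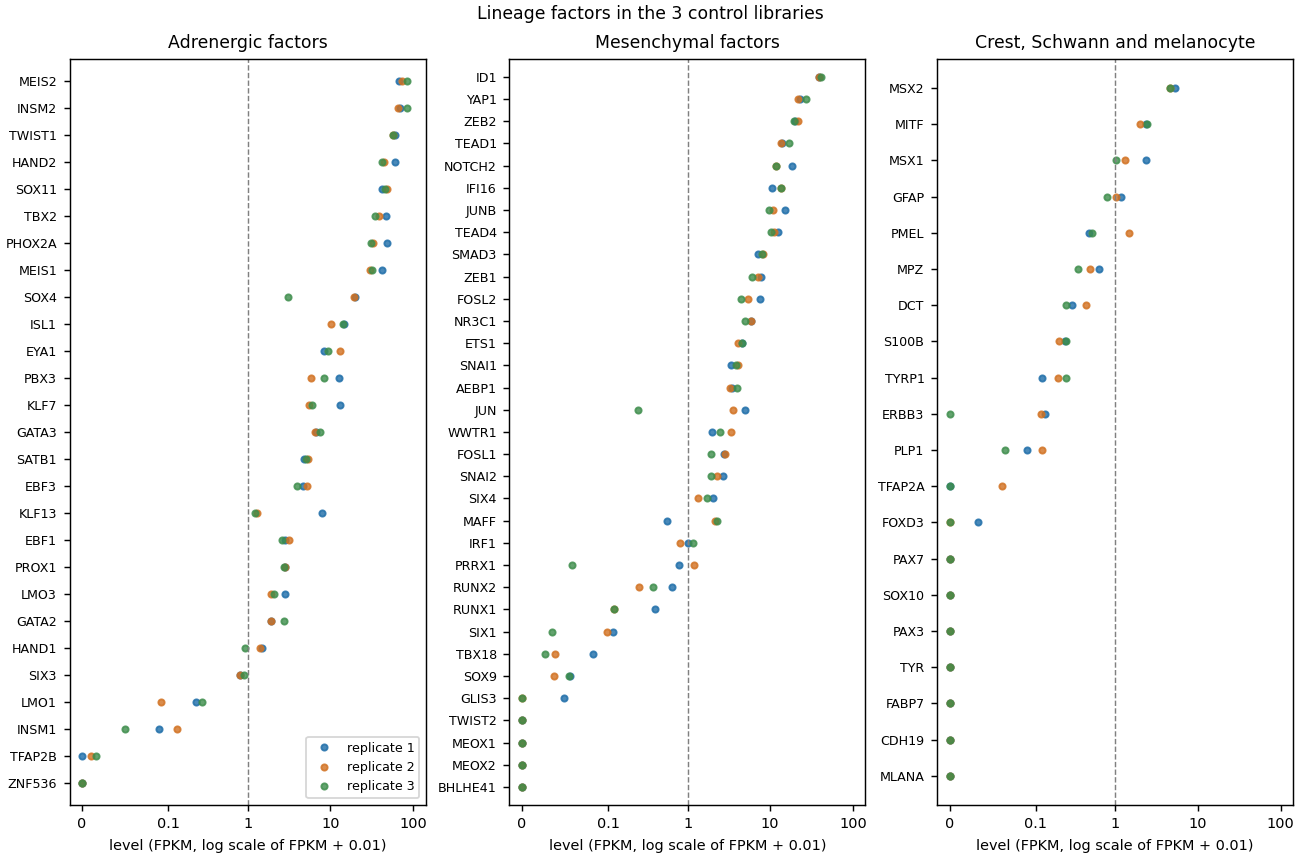
Level of list members in each of the 3 control libraries, in FPKM on a log scale after adding 0.01, for adrenergic factors, mesenchymal factors and markers of the crest, Schwann cells and melanocytes. Points are libraries and the dashed line is 1 FPKM; 23 of 29, 19 of 33 and 3 of 20 members were detected, and 2 of the detected adrenergic members are not drawn.

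Promoter sequence is shown for the 3 highest adrenergic factors with an entry in the RefSeq promoter table (GRCh38.p14) and for TWIST2, a mesenchymal factor with no count. Each line gives the 250 bases before the annotated start in the direction of transcription, with every CpG dinucleotide in capitals. They lie at chr15:37099107-37099356 (minus strand), chr14:35533914-35534163 (plus), chr4:173530230-173530479 (minus) and chr2:238847835-238848084 (plus).
MEIS2: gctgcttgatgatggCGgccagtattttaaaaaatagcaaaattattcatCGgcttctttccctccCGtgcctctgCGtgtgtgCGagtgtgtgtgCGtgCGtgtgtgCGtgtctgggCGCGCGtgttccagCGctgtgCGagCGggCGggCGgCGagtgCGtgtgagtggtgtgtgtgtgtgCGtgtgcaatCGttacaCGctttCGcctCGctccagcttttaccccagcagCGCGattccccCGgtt
INSM2: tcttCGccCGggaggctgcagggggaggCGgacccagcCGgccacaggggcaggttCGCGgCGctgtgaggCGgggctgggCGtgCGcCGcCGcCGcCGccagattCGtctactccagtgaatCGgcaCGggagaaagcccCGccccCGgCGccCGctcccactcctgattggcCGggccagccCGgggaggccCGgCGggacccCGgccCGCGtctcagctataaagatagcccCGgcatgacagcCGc
HAND2: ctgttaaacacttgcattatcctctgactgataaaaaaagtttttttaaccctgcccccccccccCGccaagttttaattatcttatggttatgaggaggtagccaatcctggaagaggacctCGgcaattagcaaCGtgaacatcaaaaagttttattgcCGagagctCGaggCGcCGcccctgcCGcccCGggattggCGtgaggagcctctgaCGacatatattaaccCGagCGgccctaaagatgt
TWIST2: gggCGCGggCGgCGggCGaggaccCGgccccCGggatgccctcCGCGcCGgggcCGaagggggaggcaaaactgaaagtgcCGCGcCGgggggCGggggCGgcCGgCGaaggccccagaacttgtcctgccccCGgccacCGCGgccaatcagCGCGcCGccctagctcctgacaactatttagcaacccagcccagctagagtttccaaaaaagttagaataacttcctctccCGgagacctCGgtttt
The printed stretches hold 26, 30, 13 and 26 CpG dinucleotides. Thus the silent TWIST2 had as many as the highest factor, and the detected HAND2 had the fewest. TATAAA was found on either strand only in INSM2, and CACGTG, the E-box read by MYC proteins, in none of the 4.

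Across the genome, detection went with CpG content. Of 14932 coding genes with a promoter entry, 14.04% of 2386 genes with 0 to 4 CpG in the 300 bases around the start were detected. The share was 59.2% of 2495 genes with 10 to 19 CpG and 77.0% of 4640 genes with 30 or more. Promoters with at least 20 CpG made up 57.5% of all, 74.97% of detected genes and 18.9% of genes at 0 FPKM. TATAAA was present in 9.40% of all promoters, in 7 of 10 replication-dependent histone genes and in 2 of 20 adrenergic factors. CACGTG was present in 8.87% of all promoters and in 9 of 23 ribosome biogenesis and MYC target genes. A start at C followed by 4 pyrimidines, the form of translation-controlled mRNAs, was present in 4.72% of all and in 22 of 35 ribosomal protein genes. These are matches of letters, and binding was not measured.

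**Figure D2:**
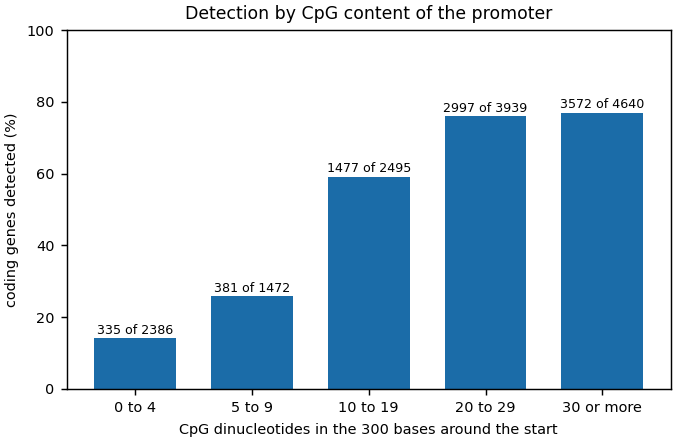
Share of coding genes detected (at least 1 FPKM in all 3 control libraries, in percent) by the number of CpG dinucleotides in the 300 bases around the annotated start. Bars carry the number of genes detected of all genes in the class; the share was 14.04% in the lowest class and 77.0% in the highest.

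Mesenchymal factors were a mixed group. Of 33 found, 19 (57.6%) were detected, with a median of 2.6 FPKM beside 2.598 FPKM for all coding genes. The highest were ID1, an inhibitor of basic helix-loop-helix factors, at 38.5, 38.5 and 40.9 FPKM, and YAP1, the Hippo pathway coactivator, at 23.2, 21.8 and 26.8 FPKM. ZEB2 (20.3 FPKM) and TEAD1 (14.8 FPKM), the DNA-binding partner of YAP1, followed. PRRX1, which can drive the mesenchymal state in neuroblastoma, had 0.778, 1.18 and 0.0305 FPKM, under 1 FPKM in 2 of the 3 libraries. RUNX1 had 0.393, 0.121 and 0.121 FPKM. TWIST2, MEOX1, MEOX2 and BHLHE41 had no count. The AP-1 members FOSL1, FOSL2 and JUNB were detected at 2.50, 5.78 and 11.8 FPKM. JUN had 4.97 and 3.55 FPKM in replicates 1 and 2 and 0.242 FPKM in replicate 3.

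Markers of crest progenitors, Schwann cells and melanocytes were at 3 of 20 detected, with a median of 0.0808 FPKM. MSX2, a homeobox gene of the crest, had 4.79 ± 0.429 FPKM, MITF 2.24 ± 0.234 and MSX1 1.56 ± 0.693 FPKM. SOX10, the defining factor of Schwann and melanocyte lineages, had no count in any library, nor had PAX3, PAX7, TYR, MLANA, CDH19 or FABP7. NOTCH, WNT, BMP and hedgehog genes had 31 of 48 members detected. SFRP1, a secreted WNT inhibitor, led with 110, 70.4 and 87.4 FPKM, and ID1, ID3 and ID2 followed. The HES family member HES6 had 18.7 FPKM, whereas HES5, HEY2 and the ligand DLK1 had no count.

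Catecholamine synthesis genes were incomplete. Of 17 genes, 10 were detected, with a median of 5.03 FPKM. TH, the rate-limiting enzyme, had no count in 3 libraries, and neither had PNMT, which makes adrenaline. DBH, which makes noradrenaline from dopamine, had 0.174, 0.146 and 0.132 FPKM, from 25 to 36 reads per library. DDC, which decarboxylates dopa, had 11.5, 9.01 and 7.50 FPKM. The genes around the pathway were present. MAOA, which degrades catecholamines, had 33.9 ± 4.11 FPKM, 7.48 times MAOB. PCBD1 and PTS, of the cofactor tetrahydrobiopterin pathway, had 15.4 FPKM each, and SLC6A2, the noradrenaline transporter and target of MIBG imaging, had 5.88, 6.69 and 6.87 FPKM. The vesicular transporter genes SLC18A2 and SLC18A1 were at 0.722 and 0.00496 FPKM.

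Neuronal structure genes were high. Of 31 found, 26 (83.9%) were detected, with a median of 16.4 FPKM. STMN1, which destabilises microtubules, had 251, 191 and 205 FPKM, and UCHL1, a neuronal deubiquitinase, had 194, 177 and 135 FPKM. GAP43 and STMN2, growth cone proteins, had 52.7 ± 7.43 and 38.5 ± 6.33 FPKM. TUBA1A had 325, 201 and 107 FPKM, and TUBA1C, which is close to it in sequence, had 155, 86.1 and 6.63 FPKM. How reads were shared between such close genes is not known. The neurofilament genes NEFM and NEFH were at the other end, while NEFL had no match and was not analysed. INA, of the same list, was detected at 1.44 to 1.59 FPKM. NEFM had 0.0216 FPKM and NEFH no count, DCX had 0.319 FPKM, and peripherin (PRPH), the intermediate filament of peripheral neurons, had 4.85 ± 1.03 FPKM.

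Secretory genes were divided in the same way. Of 29 synaptic vesicle and dense-core granule genes, 15 were detected. Secretogranin II (SCG2) had 63.8, 73.8 and 55.8 FPKM, and the peptide-processing enzymes PAM and CPE had 61.5 ± 13.3 and 35.5 ± 2.82 FPKM. Chromogranins A (CHGA) and B (CHGB), the usual granule markers, had 0.167 and 0.0687 FPKM, and the convertases PCSK1 and PCSK2 were under 0.04 FPKM in every library. SYT1, a calcium sensor of vesicle release, had 40.3 FPKM beside 0.534 for SYP. Of 14 neuropeptide genes only NPY, the sympathetic peptide, was detected, at 14.5, 10.1 and 10.1 FPKM, and 9 had no count. In the sympathoblast and chromaffin list, 13 of 25 were detected, with TLX2 (47.1 ± 2.18 FPKM) and MAB21L2 (47.0 ± 3.52 FPKM) next to GAP43, and PNMT, PENK, POU4F1, NEUROG2 and CARTPT had no count. Of 19 genes of central neurons and glia, 1 was detected.

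Growth factor and neurotransmitter receptors were detected for 17 of 31 genes, with a median of 1.73 FPKM. GFRA2, the neurturin receptor, had 16.7, 20.2 and 29.7 FPKM, and its signalling partner RET had 11.02, 7.45 and 11.2 FPKM. EGFR had 17.3, 17.7 and 17.2 FPKM and IGF1R 18 ± 3.9 FPKM. ALK, the receptor kinase mutated in some neuroblastomas, had 0.0301, 0.0955 and 0.00810 FPKM. Of the neurotrophin receptors, NTRK3 had 0.314 and NGFR 0.107 FPKM, and NTRK2 had no count. MET and KIT were at most 0.0169 FPKM in any library. Nicotinic receptor subunits of ganglia were present, with CHRNA3 at 14.3, CHRNA5 at 9.80, CHRNA7 at 5.10 and CHRNB4 at 2.94 FPKM.

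Surface antigens and ganglioside enzymes were detected for 11 of 18 genes. CD276 (B7-H3), an immunotherapy target, had 34.1, 27.8 and 16.5 FPKM. The glypican GPC2 had 8.13 ± 0.728 FPKM and DLL3 3.65 ± 0.266. The enzymes that make the ganglioside GD2, B4GALNT1 and ST8SIA1, had 3.48 and 3.02 FPKM. CD44 had no count.

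Few antigen presentation genes were detected. Of 21 genes, 4 passed 1 FPKM in all libraries, and 16 were under 1 FPKM in every library. B2M, the light chain of class I molecules, had 190, 167 and 143 FPKM. Of the heavy chains, HLA-E was detected at 1.70, 1.84 and 1.25 FPKM, while HLA-B had 0, 0 and 0.0539 FPKM and HLA-C no count. HLA genes are near-identical in parts and differ from the reference between people, so their split is uncertain. The peptide transporter subunit TAP1 had 0.00583, 0.0125 and 0.00795 FPKM, and of the immunoproteasome subunits PSMB8 and PSMB9 had no count while PSMB10 had 6.59, 8.24 and 5.28 FPKM. NLRC5, the class I activator, had 0.0148, 0.0206 and 0.00405 FPKM. Interferon-stimulated genes had 14 of 34 members detected, with a median of 0.803 FPKM. IFI44 led with 62.3, 59.3 and 42.1 FPKM, followed by ADAR (25.7) and IFI44L (23.4 FPKM). Several members usually induced together were low: MX1 had 0.105 FPKM, IFIT3 0.154, OAS1 0.0642 and IFIH1, a sensor of double-stranded RNA, 7, 0 and 0 reads.

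Matrix genes were expressed broadly. Of 43 genes, 30 (69.8%) were detected, with a median of 7.39 FPKM. FN1 (fibronectin) had 141, 146 and 126 FPKM and COL3A1 142, 105 and 97.2 FPKM. LAMB1 and LAMC1, shared chains of laminins, had 48.0 ± 1.29 and 31.1 ± 3.88 FPKM. SPARC had 110 FPKM in replicate 1 and 26.0 and 24.9 in the others, so its mean of 53.8 FPKM was 25.5 without replicate 1. Collagen IV, the collagen of basement membranes, was missing: COL4A1 had no count and COL4A2 0.0365 FPKM. THBS1, THBS2, ACAN and HAPLN1 also had no count. The fibrillar collagen I genes differed in level, with COL1A1 at 11.02 ± 0.974 and COL1A2 at 2.19 ± 0.516 FPKM. LUM (33.5 FPKM), DCN and PDGFRB, which are also fibroblast markers, were detected while the fibroblast marker FAP had 0.0479, 0 and 0 FPKM, and 7 of 13 endothelial and fibroblast list genes were detected in all.

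Of 20 integrin subunits, 9 were detected. ITGB1 had 137, 151 and 156 FPKM, ITGB5 46.9 ± 11.8 and ITGAV 33.7 ± 1.77 FPKM, whereas ITGB3 and ITGB7 had no count. Among cadherins and cytoskeletal genes, 19 of 26 were detected. VIM, the mesenchymal intermediate filament, had 506, 547 and 462 FPKM, N-cadherin (CDH2) had 51.9 ± 2.13 and E-cadherin (CDH1) 0.00281 FPKM. TMSB10, an actin-binding peptide, reached 1279 ± 127 FPKM. CAV1 had no count and TAGLN had 0.0876 FPKM. ANXA2 had 28.1 and 21.5 FPKM in replicates 1 and 2 and 1.62 FPKM in replicate 3.

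**Figure D3:**
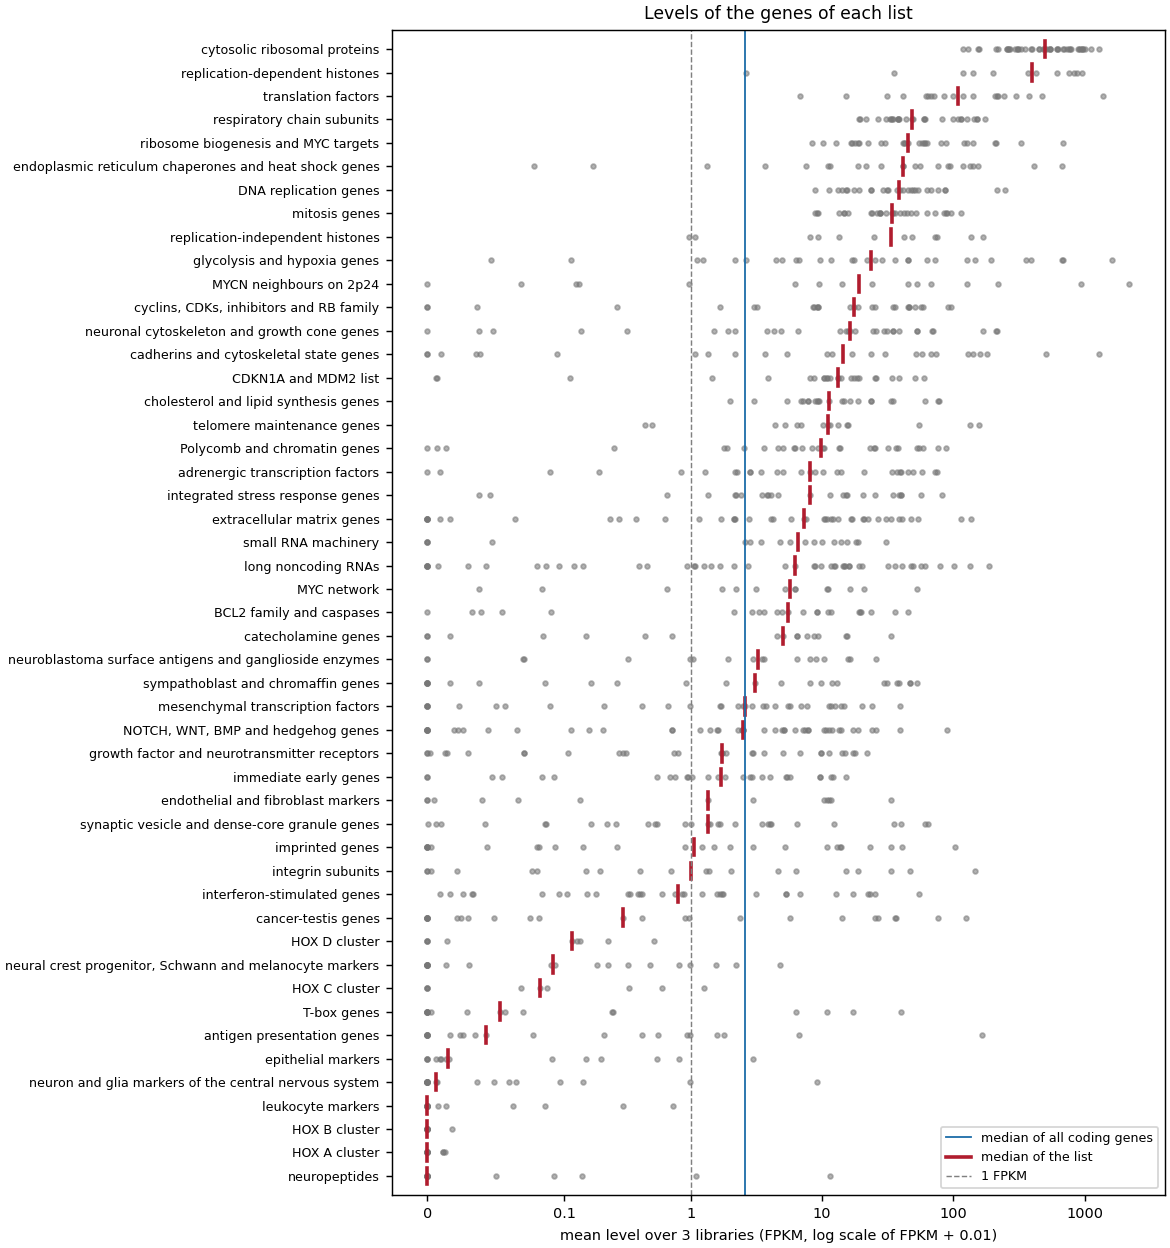
Mean level over the 3 control libraries (FPKM on a log scale after adding 0.01) of every gene of 49 lists, ordered by list median. Grey points are genes, red bars list medians, the blue line the median of all coding genes (2.598 FPKM) and the dashed line 1 FPKM; ribosomal proteins are highest (median 497 FPKM) and neuropeptides, HOX A, HOX B and leukocyte lists have medians of 0.

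Genes near MYCN reached extreme levels. DDX1, an RNA helicase whose gene neighbours MYCN, had 2011, 2305 and 2271 FPKM, the highest mean of all 18638 coding genes, above GAPDH (1604 ± 42.9 FPKM) with ranges apart. MYCN itself had 48.8, 58.3 and 52.2 FPKM, rank 712. SMC6, a subunit of a DNA repair complex, had 990, 981 and 856 FPKM (rank 14), and WDR35, a ciliary transport protein, had 402, 487 and 491 FPKM (rank 57). GEN1, a Holliday junction resolvase, had 205, 218 and 231 FPKM, TTC32 had 170, 195 and 182 and NBAS, of Golgi transport, 62.2, 68.9 and 73.5 FPKM. SMC6 and GEN1 overlap on opposite strands, so without known strand use their split is uncertain. In GENCODE 29 on GRCh38, looked up by gene ID since the files use hg19, DDX1 lies at chr2:15591178-15631111, MYCN at chr2:15940564-15947007 and SMC6 at chr2:17663812-17800242.

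High and silent genes alternated along the arm. Of 32 coding genes starting within 5 Mb of MYCN, 22 were detected, 3 were among the 100 highest coding genes and 5 among the 500 highest, which are 2.68% of all coding genes. The 5 genes of this window with the most counts held 2.19% of all counts, of which DDX1 alone had 0.783%. Between MYCN and SMC6 lie CYRIA, RAD51AP2 and VSNL1, with 0.125, 0.132 and 0.977 FPKM. Beyond GEN1, MSGN1 had 0.0727 FPKM and KCNS3, a potassium channel subunit, 34.0 ± 2.69 FPKM, and NT5C1B and GDF7 had no count. Of 16 listed genes of the MYCN region, MYCN included, 11 were detected, with a median of 19.3 FPKM. DNA copy number was not measured here. The antisense RNA MYCNOS overlaps MYCN and had 6.32, 5.48 and 6.88 FPKM, and reads of the 2 genes cannot be separated where they overlap unless strand was used.

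**Figure D4:**
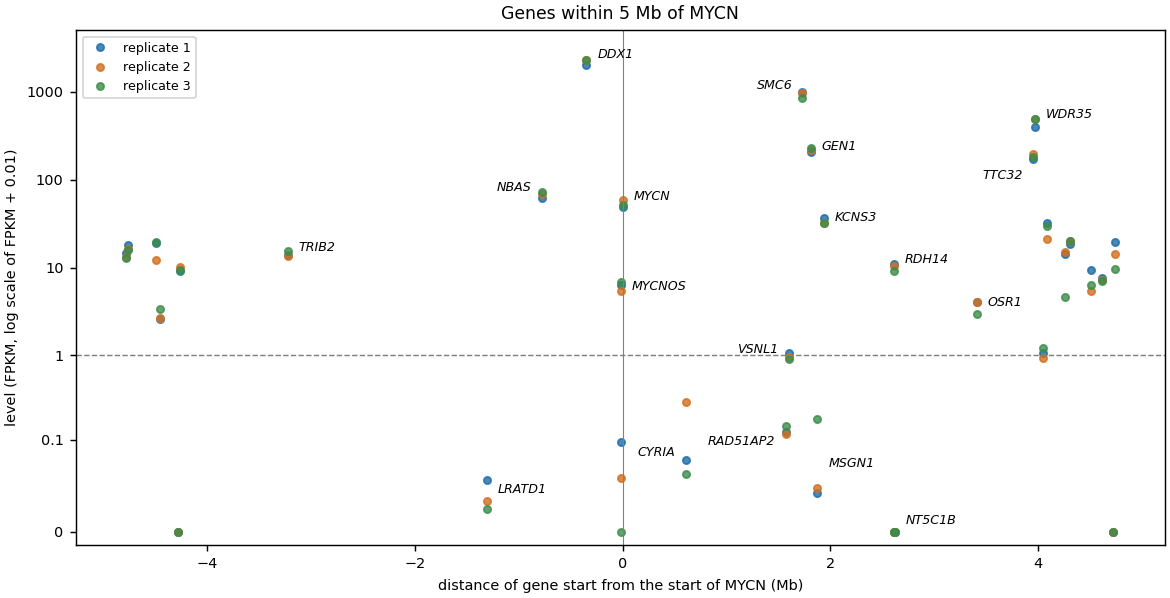
Level in each control library (FPKM on a log scale after adding 0.01) of the genes that start within 5 Mb of MYCN, by distance of their start from that of MYCN in Mb. Points are libraries and the dashed line is 1 FPKM; DDX1, SMC6, WDR35, GEN1 and TTC32 lie above 100 FPKM, and several genes between them are under 1 FPKM.

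MYCN was the MYC family member of these cells. MYC had 0.127, 0.0212 and 0.0434 FPKM and MYCL 0.478, 0.902 and 0.604 FPKM. The partner MAX had 11.2 ± 1.06 FPKM, and 11 of 14 network genes were detected. All 29 ribosome biogenesis and MYC target genes were detected, with a median of 45.6 FPKM. NPM1, a nucleolar chaperone, had 674, 766 and 627 FPKM, ahead of HSPD1 (326 FPKM), NME1 (213) and CCT2 (209 FPKM). ODC1, the polyamine enzyme and a long-known MYC target, had 143, 98.6 and 142 FPKM.

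Cell cycle genes were complete. All 28 DNA replication genes were detected, with a median of 38.5 FPKM, and all 29 mitosis genes, with a median of 34.5 FPKM. The replicative helicase subunit MCM7 had 251, 236 and 253 FPKM and the sliding clamp PCNA 211, 203 and 233 FPKM, both apart from MCM4 (87.2 FPKM). CENPF, of the kinetochore, had 114 ± 5.22 FPKM, and MKI67, the proliferation marker, 13.5 ± 2.43 FPKM. Of 27 cyclins, kinases, inhibitors and RB family genes, 23 were detected. CCND1 had 65.0, 55.7 and 51.2 FPKM while CCND2 had no count and CCND3 3.21 FPKM. CDK4 had 90.8 ± 23.3 FPKM. CDK6 had 12.1, 31.2 and 9.95 FPKM, so that its mean of 17.8 became 11.01 without replicate 2. Among inhibitors CDKN1B had 45.7 and CDKN2C 34.9 FPKM, CDKN2A 1.68 and CDKN2B 0.0140 FPKM.

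Of 23 BCL2 family and caspase genes, 17 were detected. MCL1 had 36.3 FPKM, beside 4.96 for BCL2L1 and 2.97 for BCL2, and CASP8, which is silent in many neuroblastomas, had 9.08, 6.77 and 5.76 FPKM. Of 15 telomere genes, 13 were detected, led by the telomerase RNA-binding proteins NOP10 (156) and NHP2 (134 FPKM). The 2 core parts of telomerase were the exceptions, TERT with 0.696, 0.354 and 0.450 FPKM and the RNA TERC with 0.359, 0.390 and 0.586 FPKM. ATRX, whose loss goes with telomerase-free telomere upkeep, had 13.2 FPKM.

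Chromatin genes were detected for 25 of 30 members, with a median of 9.80 FPKM. KDM1A, a histone demethylase, had 88.9, 88.8 and 86.5 FPKM and EZH2, the Polycomb methyltransferase, 36.9 ± 2.02 FPKM. The chromatin remodelling ATPase SMARCA4 had 19.7, 20.6 and 29.2 FPKM, while its alternative SMARCA2 had 0.00268, 0.00274 and 0 FPKM. CHD5, a candidate tumour suppressor of the deleted short arm of chromosome 1 in neuroblastoma, had 0.00394 FPKM. Small RNA genes were detected for 14 of 18 members. LIN28B, which blocks let-7 maturation, had 16.4, 13.0 and 12.7 FPKM, and LIN28A and the germline genes PIWIL2 and PIWIL4 had no count.

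HOX genes were low in all 4 clusters. Of 39 HOX genes in the 4 clusters, HOXC9 alone was detected, at 1.29, 1.36 and 1.15 FPKM. The HOX A and HOX B clusters had 8 of 11 and 9 of 10 genes without a count, whereas HOX C and HOX D had 3 of 9 each. HOXC4 (0.604), HOXD8 (0.522) and HOXC5 (0.332 FPKM) were next. Of 20 HOX promoters in the table, 12 held at least 20 CpG, a share of 60.0% against 32.6% over all coding genes that were not detected. Of 17 T-box genes, 4 were detected, TBX2 with 46.6, 38.6 and 34.3 FPKM, TBX20 with 18.6, 15.3 and 17.6, MGA with 10.96 ± 1.82 and TBX3 with 6.39 ± 0.433 FPKM. TBX2 was apart from TBX20 and was 6.23 times TBX3. TBX5, TBXT, EOMES and TBR1 had no count.

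Listed long noncoding RNAs were detected for 30 of 49 genes found, with a median of 6.23 FPKM. Of all 13074 long noncoding genes, 4.67% were detected. Hosts of small nucleolar RNAs led, SNHG29 with 195, 196 and 171 FPKM and GAS5 with 151, 134 and 120 FPKM, followed by MALAT1, a nuclear speckle RNA, with 101, 83.3 and 118 FPKM. TBX2-AS1, the antisense RNA of TBX2, had 17.2, 15.5 and 15.9 FPKM, a level below that of TBX2 in every library. HAND2-AS1 had 14.5 ± 1.34 FPKM. NBAT1, a neuroblastoma-associated RNA, had 0.121 FPKM, and HOTAIR, MIR155HG and MIR124-2HG, the last a host of a neuronal miRNA, had no count. CASC15, also neuroblastoma-associated, had 3.43, 0.947 and 3.83 FPKM. NEAT1, the scaffold of paraspeckles, had 0.625, 1.76 and 0.789 FPKM, although its counts were 914, 214 and 1093, so the order of the libraries depends on the table. Overlapping and antisense pairs are uncertain as above.

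MIR17HG, the host transcript of the miR-17-92 cluster that MYC proteins induce, had 61.9, 38.5 and 44.2 FPKM (counts of 8179, 6061 and 7119). The mature miRNAs were not measured by these libraries; they are shown because the transcript carries 6 of them with 4 seeds. Sequences are from RefSeq (GRCh38.p14, chromosome 13, plus strand), with the seed, bases 2 to 8, in capitals.
hsa-miR-17-5p: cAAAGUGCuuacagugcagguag
hsa-miR-20a-5p: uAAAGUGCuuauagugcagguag
hsa-miR-18a-5p: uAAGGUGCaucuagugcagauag
hsa-miR-19a-3p: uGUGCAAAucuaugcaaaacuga
hsa-miR-19b-3p: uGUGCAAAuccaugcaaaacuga
hsa-miR-92a-3p: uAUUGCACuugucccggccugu
The first pair shares 1 seed and the 2 miR-19 sequences share another, while miR-18a and miR-92a each have their own. The miR-17 site lies at chr13:91350618-91350640 and that of miR-92a at chr13:91351361-91351382. Of the maturation genes, XPO5, the export factor of miRNA precursors, had 30.7 ± 2.73 FPKM, DROSHA 18.4 ± 3.07 and DICER1 15.6 ± 2.84 FPKM.

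Structured RNAs dominated the FPKM scale. The 100 highest genes held 52.9% of all FPKM, and coding genes 51.1% to 53.9%, although coding genes held 86.6% to 87.8% of the counts. The small nuclear RNA 7SK, which holds back transcription elongation, had 63560, 62639 and 58053 FPKM. The 2 IDs without a symbol in the tables used, ENSG00000258486.2 and ENSG00000265150.1, followed with 54059 ± 6047 and 24561 ± 4412 FPKM. RMRP, the RNA of RNase MRP, had 8378 ± 1014 FPKM. Of 20 structured RNAs found, 14 were detected, beside 3.79% of all 5616 small noncoding genes. FPKM of RNAs shorter than a library fragment can be far from their true number. Ribosomal protein genes took 15.3% to 15.9% of the coding FPKM and 53 of the 100 highest coding ranks, and histones 15. All 46 ribosomal protein genes of the list were detected, with a median of 497 FPKM and RPS27 at 1276, 1355 and 1202 FPKM.

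Replication-dependent histone mRNAs, which lack a poly(A) tail and are kept by ribosomal depletion, were high. All 12 found were detected, with a median of 398 FPKM, and the linker histone H1-2 had 1113, 901 and 875 FPKM. The variant histone H2AZ1 had 170.0 ± 37.9 FPKM, and 10 of 12 replication-independent histones were detected. H2AC6 had 3.08, 260 and 345 FPKM and H2AC7, a near-identical gene, 497, 417 and 4.58 FPKM. Only in replicate 2 were both high, and the part of read assignment in these values was not tested.

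Housekeeping lists were detected almost in full. All 20 translation factors (median 109 FPKM), all 29 respiratory chain subunits (48.4) and all 23 cholesterol and lipid genes (11.4 FPKM) were detected. EEF1A1 had 1446, 1369 and 1315 FPKM, 33.1 times EEF1A2, and ACLY, which supplies acetyl-CoA, had 78.6 ± 5.54 FPKM. Of 30 glycolysis and hypoxia genes, 26 were detected. LDHB had 678 ± 45.5 FPKM and LDHA 147 ± 5.87, so LDHB was 4.62 times LDHA, and CA9, a hypoxia marker, had 0.0203 FPKM. Of 25 integrated stress response genes, 21 were detected, with ATF4 at 56.7 ± 8.82 FPKM and CHAC1, which reports activation, at 0.651. Of 28 immediate early genes, 12 were detected, with EGR1 at 1.71, 0.634 and 0.455 FPKM and FOS at 0.688 FPKM.

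Imprinted genes were detected for 13 of 26 members. GNAS had 103 ± 10.0 FPKM, PEG10 40.5 ± 5.75 and NDN 33.9 ± 2.82 FPKM. From 1 shared locus, H19 had 5.71, 5.23 and 4.91 FPKM while IGF2, its reciprocally imprinted neighbour, had 0.0125, 0.00412 and 0.0389 FPKM. DLK1 had no count and MEG3, its reciprocal partner, had 0.0587 FPKM. SNRPN and SNURF share exons and their values of 13.9 and 13.98 FPKM cannot be told apart. Cancer-testis genes were detected for 9 of 25 members. PRAME had 128, 131 and 119 FPKM and MAGEB2 82.4, 76.2 and 71.0 FPKM. MAGEA3 had 37.0 ± 1.53 FPKM and MAGEA12, which is close to it in sequence, 25.4 ± 0.961 FPKM. CTAG1B, CTAG2 and the germline genes DAZL and BRDT had no count.

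The 3 libraries were alike for most genes. Across 12286 detected genes, Pearson's r of log2 FPKM was 0.966 to 0.972 between pairs of libraries, and 56.2% to 63.7% of genes were within 1.2 times of each other. For differences between libraries, CPM scaled by TMM were used. The biological coefficient of variation (BCV, the spread beyond counting error) was 0.226 over 16445 genes. The median coefficient of variation (CV) was 10.6% over 12248 detected genes, falling from 14.99% at 1 to 3 FPKM to 6.75% at 100 FPKM or more. Of 4833 coding genes of at least 10 FPKM, 77 had a CV over 50%. SMO, a transducer of hedgehog signalling, was the steadiest with 57.6, 57.6 and 57.5 CPM. TRAPPC5 was the least steady with 3.92, 30.9 and 2.35 CPM, followed by TUBA1C with 279, 145 and 9.88 CPM. Others, such as CHP1, ARF3, SPCS3, TMED7 and HNRNPH2, had 1 library or 2 apart by several times.

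A list of stress response and growth arrest genes that includes CDKN1A and MDM2 differed most between the control libraries. The lists described next were picked from 50 after their values were seen, and 3 libraries allow no test. Of 25 genes of this list 21 were detected, with a median of 13.3 FPKM over all 25. All 21 detected members were highest in replicate 3, against 32.9% of 12248 detected genes, and 17 were lowest in replicate 1, against 33.6% of detected genes. Their median CV of 32.5% was the highest of any list. CDKN1A, the p21 inhibitor of cyclin-dependent kinases, had 61.7, 179 and 311 CPM. MDM2, a ubiquitin ligase, had 86.2, 155 and 252 CPM, and SESN1, a stress-response inhibitor of mTORC1 signalling, 27.8, 54.5 and 93.7 CPM. The libraries did not share a level for any of these 3 genes, and replicate 3 was 2.59, 2.09 and 2.28 times the mean of the others. ZMAT3, RRM2B, PHLDA3 and BTG2 had the same order. BAX, an apoptosis effector, had 20.3, 22.3 and 23.3 CPM. Over the 21 genes the median ratio of replicate 3 to the mean of the others was 1.60, against 0.993 over all detected genes. The mean of CDKN1A in FPKM was 51.5 with all 3 libraries and 33.9 without replicate 3. Replicate 1 was also the deepest library, at 50490867 counts. The part of depth in this difference was not tested.

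Other groups leaned towards replicate 1, which was highest for 37.1% of detected genes. Of 14 interferon-stimulated genes detected, 12 were highest in replicate 1, with a median ratio to the mean of the others of 1.22. IFI44 had 240, 226 and 159 CPM, BST2 20.4, 19.7 and 13.0 CPM, and IFI44L, an exception, 121, 79.5 and 144 CPM. Chaperone and heat shock genes had 20 of 23 members detected, with a median of 41.8 FPKM, and 15 of the 20 were highest in replicate 1. HSPA8, the constitutive cytosolic chaperone, had 2248, 1530 and 1050 CPM and its cochaperone DNAJB1 103, 70.7 and 41.7 CPM. HSP90AA1 and HSPA5 were the exceptions that were highest in replicate 3. Of 11 replication-dependent histones measured in CPM, 10 were highest in replicate 1, H1-2 with 1201, 1005 and 989 CPM. DNA replication genes had a median CV of 4.96% and showed no such lean in CPM. Of these 28 genes 10 (35.7%) were highest in replicate 1 and 13 in replicate 3. With DESeq2 size factors 14 were highest in replicate 1, where the share of all detected genes was 42.2%. In FPKM 16 were, where that share was 46.7%.

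**Figure D5:**
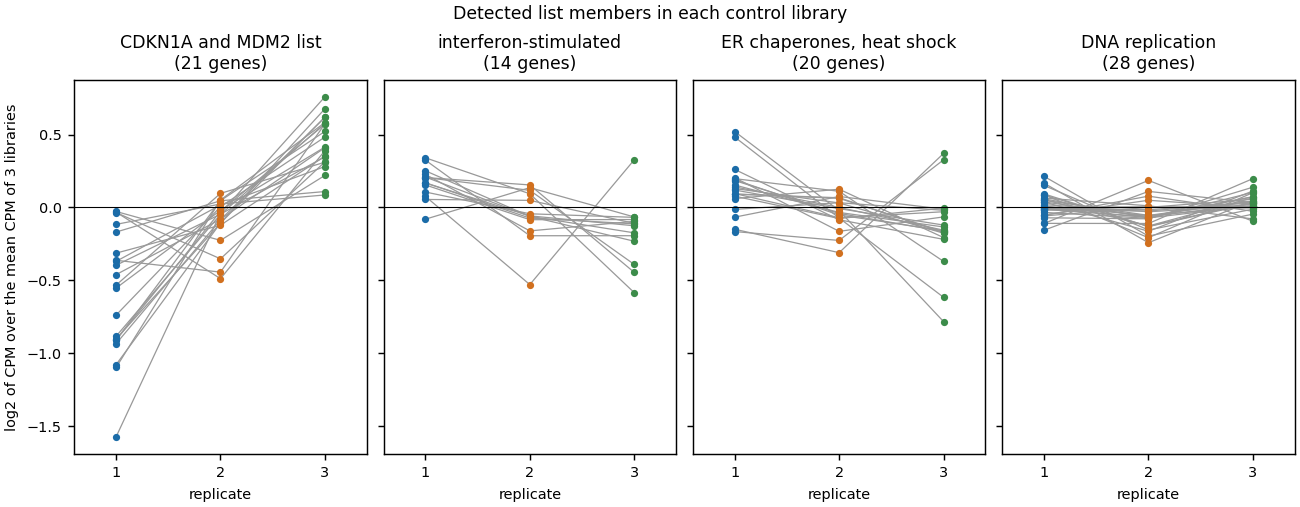
Log2 of the CPM of each detected list member in each control library over its mean of the 3 libraries, for the CDKN1A and MDM2 list, interferon-stimulated, chaperone and heat shock, and DNA replication genes. Points are genes, lines join the values of a gene, and the replicate number has no order; all 21 genes of the CDKN1A and MDM2 list are highest in replicate 3.

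Some listed genes had a mean that depended strongly on 1 library. SNORD118, a structured RNA, had 16.5, 0.0833 and 0.0796 FPKM, from 164, 1 and 1 reads. RNU4ATAC, of the same kind, had 12.4, 0.0808 and 0.0749 FPKM, from 117, 1 and 1 reads. KLF13, of the adrenergic list, had 7.81 FPKM in replicate 1 and 1.29 and 1.22 in the others, so that its mean of 3.44 became 1.25 without replicate 1. SOX4, a progenitor factor of the same list, had 20.03 and 19.3 FPKM in replicates 1 and 2 and 3.10 in replicate 3. TGFB3 had 2.47 FPKM, and 1.60 without replicate 1. H2AC6 was low in replicate 1 alone, at 3.08 FPKM beside 260 and 345 in the others. Its mean of 203 FPKM was 131 without replicate 3, a mean that still held the low replicate 1.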

How the data were processed

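Per the submitters' processing notes, reads were handled with FastQC, STAR 2.4.2a and StringTie 1.3.3 on hg19. Annotation, counting program and strand use are not given in the sources used here. Both tables were deposited by the authors, 1 of expected counts per gene (whole numbers throughout) and 1 of FPKM. Only the 3 siNTC columns were read, and 0 value columns had no sample. Gene IDs were matched to symbols in a gene name table and in GENCODE 29, and 52286 of 57757 matched, holding 94.8% of the counts. Listed genes with no match were not analysed here. Levels are the deposited FPKM. Spread was taken from the deposited expected counts with edgeR 4.0.16 (TMM scaling, common BCV) in R 4.3.3, and the BCV script, tested on simulated data for the 3 libraries (17837 genes), returned 0.999 of the true value. DESeq2 1.42.0 size factors, TPM, other thresholds and leaving out each library were alternatives. Named genes are members of 50 lists, the 20 highest coding and 10 highest other genes, and the 10 most and 10 least variable coding genes of at least 10 FPKM with a symbol. Members and lists were chosen with earlier results of these data known. Replicates are biological per the labels, and SDs measure the spread between these 3 samples. A few list members count in the totals but their values are not reported here.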

Additional observations from a re-analysis of the deposited data

How the results depend on the processing

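The number of detected genes, 12286, was 10581 to 13934 under other thresholds, counts or TPM, and 12478 to 12496 without 1 replicate. The share of FPKM in the 100 highest genes, 52.9%, was 20.1% of counts, 31.9% over genes with a protein or a symbol outside the structured RNA list, and 52.4% to 53.4% without 1 replicate. Both lower values come from construction, since counts are not divided by length and the second leaves out structured RNAs. The BCV of 0.226 was 0.205 to 0.274 under other filters and scalings, and 0.216 to 0.241 without 1 replicate. The median CV of FPKM, taken in its place, was 0.124, a different measure of spread. The median CV of 10.6% was 12.4% in FPKM, 10.7% with DESeq2 size factors and 7.90% to 9.52% without 1 replicate, the last chosen after seeing the data. Of 50 lists, the number of members detected moved by over 1.5 times in 4 with TPM, 2 at 0.5 FPKM and 3 at 2 FPKM. TPM was 2.01 to 2.23 times FPKM. The 21 genes of the CDKN1A and MDM2 list highest in replicate 3 became 20 in FPKM. The 12 interferon genes highest in replicate 1 became 13 in FPKM, and the 15 chaperone genes became 12, where 46.7% of all detected genes were highest in that replicate. The 10 DNA replication genes highest in replicate 1 became 16 in FPKM and 14 with DESeq2 size factors, where the share of all detected genes was 42.2%. These scalings were also chosen after seeing the data. Low genes are limited by depth. No paired analysis was possible because the results come from no test and use 1 group.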
